A study of Mus musculus with 8 samples.

Results

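The heat shock genes described here are 10 genes of the protein-folding response: Hspa1a, Hspa1b, Hspa8, Hsph1, Dnajb1, Hsp90aa1, Hspb1, Hspe1, Hspd1 and Bag3. They were chosen by name, as the rows with these symbols in a table of read counts for 22946 gene rows. All 10 were found, each in a row of its own, although 374 other rows of the table join several symbols. Every one passed the filter on low counts, as did 12593 rows in all.

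Heat shock proteins bind unfolded or partly folded proteins and help them reach or regain their shape. When unfolded protein builds up, the transcription factor HSF1 is released from chaperones, binds heat shock elements in promoters and raises the RNA of the inducible members, while the constitutive members are made at high level in unstressed cells. In the liver the response is known to follow fever, ischaemia and toxic injury, and several of its genes also follow body temperature and feeding over the day.

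The livers came from C57 Black mice that were 8 weeks old when they were put on a diet for a further 8 weeks. The diet was a high fat diet (HFD) or normal chow. The genotypes were MLL4 het, a mouse labelled as heterozygous for the histone methyltransferase gene Mll4 (Kmt2d), and wild type. The 4 groups were het-labelled HFD (libraries 7 and 8), het-labelled chow (libraries 3 and 4), wild-type HFD (libraries 5 and 6) and wild-type chow (libraries 1 and 2). The study set out to find genes that respond to HFD in wild-type livers and respond less in het livers. The labels give neither the allele nor the promoter of any deleting agent, and nothing in them ties each library to a mouse of its own. The p-values below therefore measure the spread between libraries, which may be technical.

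Total counts were between 14142884 and 18928676 per library, so that a count of 3 corresponds to between 0.161 and 0.213 CPM (counts in a library scaled to a common total). The lowest count of any heat shock gene was 68. The row Mll2, the older symbol of Kmt2d, had 62.7 and 75.3 CPM in het-labelled HFD and 59.9 and 72.0 CPM in het-labelled chow livers, against 63.3 and 64.7 CPM in wild-type HFD and 61.2 and 69.6 CPM in wild-type chow livers. The het-labelled minus wild-type log2 difference was 0.06 (95% interval -0.14 to 0.26) over both diets. Which part of the gene the allele alters is not stated, so this level does not test the labels, and the libraries are called het-labelled throughout. Summed CPM of 5 hepatocyte markers was between 69960 and 87260 in all libraries, and 3 adipocyte and 3 muscle markers were at or near 0. Summed CPM of 8 Kupffer cell markers was 254 and 162 in het-labelled HFD, 440.5 and 369 in het-labelled chow, 153 and 157 in wild-type HFD and 163 and 153 in wild-type chow livers. Summed CPM of 3 erythroid genes was 828 and 654 in wild-type HFD livers and between 240 and 371 in the other 6 libraries. In such whole-liver RNA, fewer cells of a type and less RNA per cell cannot be told apart.

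Library 8, of the het-labelled HFD group, stood apart for the heat shock genes. Each of the 10 had its highest CPM there, while library 8 was the highest library for 13.2% of all tested rows. Hspa1b, Hspa1a, Dnajb1 and Hspb1 were more than 2 times above the next highest library, a mark that 18 tested rows in all, or 0.143%, passed. The differences of the heat shock genes that draw on het-labelled HFD livers, and their medians, are therefore given with and without it. This choice was made after the values were seen, and it leaves library 7 alone in the group.

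The promoter sequences of stress-inducible members and of Hspe1, from a mitochondrial pair, are shown first. The grouping of the genes by response can be set beside the heat shock elements in them. RefSeq (build GRCm38.p6) held windows of 300 bases, 250 before and 50 after the start of transcription, for 8 of the 10 genes, all except Hspa8 and Hsp90aa1. The 250 bases before the start are printed 5′ to 3′ on the gene's strand, and capitals mark each match to the 2-unit heat shock element, GAANNTTC or TTCNNGAA. The windows are Hspa1a at chr17:34972157-34972406 on the minus strand, Hspa1b at chr17:34959239-34959488 on the minus strand, Hspb1 at chr5:135887669-135887918 on the plus strand and Hspe1 at chr1:55087898-55088147 on the plus strand.
Hspa1a: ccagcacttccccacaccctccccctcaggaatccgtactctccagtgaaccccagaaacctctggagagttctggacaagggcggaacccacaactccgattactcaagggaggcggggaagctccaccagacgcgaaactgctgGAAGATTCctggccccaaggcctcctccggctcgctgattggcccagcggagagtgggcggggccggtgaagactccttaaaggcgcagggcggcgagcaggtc
Hspa1b: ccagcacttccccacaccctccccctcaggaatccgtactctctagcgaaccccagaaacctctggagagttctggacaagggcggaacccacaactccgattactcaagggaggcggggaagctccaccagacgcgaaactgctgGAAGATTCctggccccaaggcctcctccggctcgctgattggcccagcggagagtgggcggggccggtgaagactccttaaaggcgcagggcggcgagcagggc
Hspb1: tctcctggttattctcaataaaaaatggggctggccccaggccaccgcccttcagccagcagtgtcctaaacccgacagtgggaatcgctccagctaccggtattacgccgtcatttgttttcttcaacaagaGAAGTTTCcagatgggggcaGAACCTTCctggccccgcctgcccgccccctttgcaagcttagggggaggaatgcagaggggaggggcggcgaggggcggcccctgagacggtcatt
Hspe1: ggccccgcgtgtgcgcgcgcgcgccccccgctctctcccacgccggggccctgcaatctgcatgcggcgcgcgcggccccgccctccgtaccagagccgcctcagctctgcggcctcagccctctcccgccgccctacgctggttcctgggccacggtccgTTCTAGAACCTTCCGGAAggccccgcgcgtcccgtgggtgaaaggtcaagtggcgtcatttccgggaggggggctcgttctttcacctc

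Hspa1a and Hspa1b, neighbouring and nearly identical genes on chromosome 17, carried the same match at 104 bases before the start. Their 300-base windows were 98.7% identical, with 4 differences written as the Hspa1a base, the position from the 5′ end of the window and the Hspa1b base: C44T, T47C, T249G and C276T. The last of these lies after the start and is not printed. Hspb1 carried matches at 117 and 97 bases before the start. Hspe1 carried 3 overlapping matches at 89, 84 and 79 bases before the start, which overlap into 3-unit elements (GAANNTTCNNGAA or TTCNNGAANNTTC). The same stretch lies in the window of Hspd1, which is read in the opposite direction from the same promoter region.

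Between them the forms of each motif cover both strands. A 2-unit match was found in the windows of 7 of the 8 genes, against 17% of the 27025 genes in the RefSeq table, and a 3-unit match in 3 of the 8 (Hspd1, Hspe1 and Hsph1), against 0.662%. Dnajb1 held neither in its windows. The 3-unit match of Hsph1 and the only match of Bag3 lie after the start and are not printed. Hspd1 and Hspe1 share 1 stretch, and the windows of Hspa1a and Hspa1b are nearly identical, so these genes do not count independently. A match is a run of letters and was not tested as a binding site. The genes with 3-unit matches did not stand together in the RNA data: Hspe1 and Hspd1 were the flattest of the 10 genes, as described below.

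Levels differed widely among the genes. Per kilobase of exon and averaged over all libraries, Hspa8 had 284 CPM per kb, Hspd1 163, Hspe1 71.8 and Hsp90aa1 59.1 CPM per kb. Hspb1 followed with 18.4 CPM per kb, and Bag3, Hspa1b, Dnajb1, Hsph1 and Hspa1a lay between 13.7 and 6.05 CPM per kb. Leaving out the het-labelled HFD livers, Hspa1a averaged between 1.46 and 1.86 CPM per kb in the other 3 groups and Hspa1b between 3.85 and 4.53. In each of those 3 groups they were the 2 lowest of the 10.

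**Figure D1:**
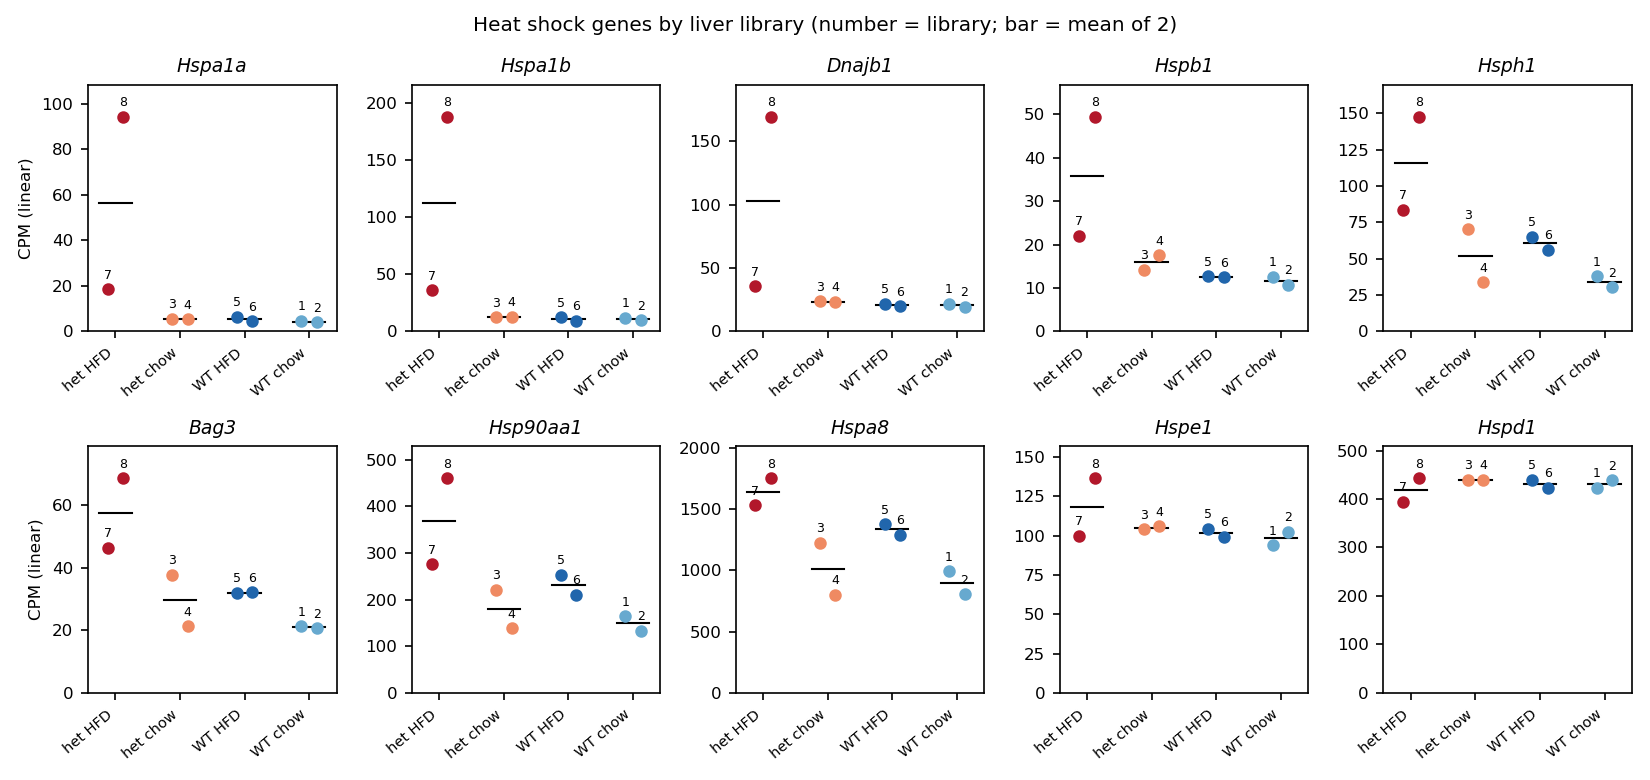
CPM of the 10 heat shock genes (linear axes from 0) in each liver library, by group, with library numbers beside the points and a bar at the mean of 2 libraries. Library 8 is the highest point in every panel, and library 7 comes next, above all 6 libraries of the other groups, in every panel except those of Hspe1 and Hspd1.

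The inducible HSP70 genes and their J-domain partner gave the widest range. Hspa1a, an inducible cytosolic HSP70, had 18.5 and 94.4 CPM in het-labelled HFD libraries 7 and 8, 5.60 and 5.44 CPM in het-labelled chow, 6.40 and 4.54 CPM in wild-type HFD and 4.72 and 3.94 CPM in wild-type chow livers. Hspa1b, the neighbouring and nearly identical gene, had 36.3 and 188.1 CPM in het-labelled HFD, 12.7 and 12.7 CPM in het-labelled chow, 12.6 and 9.40 CPM in wild-type HFD and 11.9 and 9.68 CPM in wild-type chow livers. For both genes, het-labelled HFD library 7 was already above all 6 libraries of the other groups, and library 8 was 5.10 times library 7 for Hspa1a and 5.18 times for Hspa1b.

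Because long stretches of the 2 genes are the same, their counts were also summed. Of all stretches of 50 bases in Hspa1a transcripts, 58.8% also occur in Hspa1b, and how multiply mapping reads were counted is not given in the sources used here. Hspa1a made up between 28.4% and 33.8% of the counts of both rows in every library. Hspa1a also overlaps 2225 bases of Gm20481 on the other strand, and the labels do not say whether strand was kept.

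Dnajb1, the J-domain protein that hands substrates to HSP70 and starts its ATPase cycle, had 35.8 and 169 CPM in het-labelled HFD, 23.6 and 23.5 CPM in het-labelled chow, 22.0 and 20.0 CPM in wild-type HFD and 21.7 and 19.4 CPM in wild-type chow livers. The 6 libraries outside the het-labelled HFD group lay within a narrow band, and library 8 was 4.73 times library 7. Hspb1, a small heat shock protein that holds unfolding proteins in solution, had 22.0 and 49.5 CPM in het-labelled HFD, 14.2 and 17.6 CPM in het-labelled chow, 12.8 and 12.5 CPM in wild-type HFD and 12.6 and 10.7 CPM in wild-type chow livers. Here the het-labelled livers were above the wild-type livers on the same diet, without overlap, on both diets, as they were for Hspa1a, Hspa1b, Dnajb1 and Bag3. These are 5 of the 10 genes, and 8.16% of tested rows had that order. A share of 50.1% of the 50-base stretches of Hspb1 also occurs in other genes, mostly the pseudogene Hsp25-ps1.

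Hsph1, Bag3, Hsp90aa1 and Hspa8 followed another pattern, in which library 3 of the chow livers was also high. Hsph1, an HSP110 protein that swaps the nucleotide on HSP70, had 83.7 and 148 CPM in het-labelled HFD, 70.1 and 33.8 CPM in het-labelled chow, 65.1 and 56.2 CPM in wild-type HFD and 38.1 and 30.3 CPM in wild-type chow livers. Bag3, another nucleotide exchange factor, which links HSP70 to small heat shock proteins and to autophagy, had 46.3 and 68.5 CPM in het-labelled HFD, 37.8 and 21.3 CPM in het-labelled chow, 32.0 and 32.1 CPM in wild-type HFD and 21.2 and 20.7 CPM in wild-type chow livers. In both genes library 3 exceeded both wild-type HFD libraries, while library 4, its partner on chow, sat near the wild-type chow libraries.

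Hsp90aa1, the inducible cytosolic HSP90, had 276 and 460 CPM in het-labelled HFD, 221 and 139 CPM in het-labelled chow, 253 and 211 CPM in wild-type HFD and 165 and 133 CPM in wild-type chow livers. Hspa8, the constitutive HSP70 (HSC70) and the most abundant of the 10, had 1531 and 1751 CPM in het-labelled HFD, 1224 and 802 CPM in het-labelled chow, 1377 and 1289 CPM in wild-type HFD and 995 and 803 CPM in wild-type chow livers. All 4 HFD libraries were above all 4 chow libraries for Hspa8, an order that 7.19% of tested rows shared and no other heat shock gene did. A share of 39.4% of the 50-base stretches of Hspa8 and 47.5% of those of Hsp90aa1 also occurs in other genes, most of them shared with a single other gene each (Gm15459 and Gm12346), while Hsph1 and Bag3 share none.

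The mitochondrial chaperonin pair was the flattest. Hspe1, the HSP10 lid, had 100 and 137 CPM in het-labelled HFD, 104 and 106 CPM in het-labelled chow, 104 and 99.3 CPM in wild-type HFD and 94.1 and 103 CPM in wild-type chow livers. Hspd1, the HSP60 barrel, had 394 and 443 CPM in het-labelled HFD, 440.2 and 440.1 CPM in het-labelled chow, 440 and 424 CPM in wild-type HFD and 423 and 439 CPM in wild-type chow livers. From the lowest to the highest library Hspd1 differed 1.12 times and Hspe1 1.45 times, against 23.96 times for Hspa1a and 20.01 times for Hspa1b. Library 8 was 1.29 times the next highest library for Hspe1 and 1.01 times for Hspd1. Library 7 was the lowest library for Hspd1. The annotated gene spans of Hspd1 and Hspe1 overlap by 112 bases on opposite strands. A share of 42.1% of the 50-base stretches of Hspd1, mostly in the pseudogene Hspd1-ps3, and 22.8% of those of Hspe1 also occurs in other genes.

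**Figure D2:**
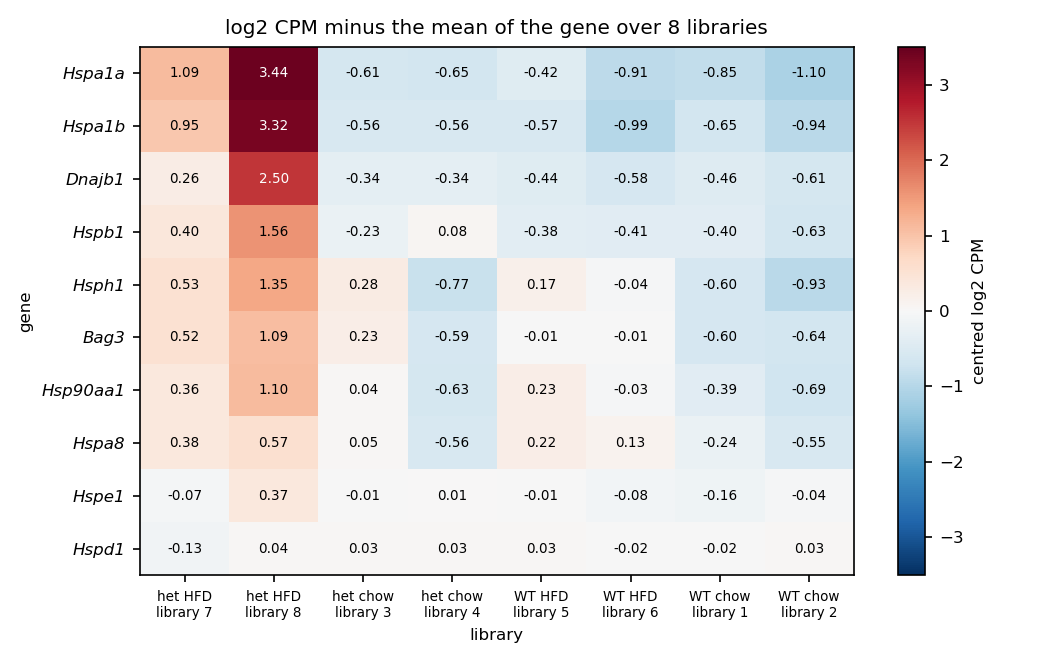
Log2 CPM of each heat shock gene in each library minus the gene's mean over the 8 libraries, red above and blue below that mean. The column of library 8 reaches 3.44 for Hspa1a and 3.32 for Hspa1b, library 7 is above the mean for 8 genes, and the values of Hspd1 stay between -0.13 and 0.04.

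HFD was first compared with chow in het-labelled livers. Hspa1a and Hspa1b rose in het-labelled HFD livers, 10.1 and 8.79 times, and the other 8 genes did not pass the test. Hspa1a averaged 56.5 ± 53.7 CPM on HFD and 5.52 ± 0.11 CPM on chow (SD, n = 2 each), and Hspa1b 112 ± 107 CPM on HFD and 12.7 ± 0.03 CPM on chow. The log2 difference was 3.34 ± 0.66 (SE) for Hspa1a, with an adjusted p of 0.0345 by edgeR's quasi-likelihood test, and 3.14 ± 0.63 for Hspa1b, with an adjusted p of 0.037. By size, Hspa1a ranked 17 among 12593 rows.

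The 2 calls among 10 genes stand beside 1.53% of all tested rows called higher in this comparison, 1.48% lower and 3.02% either way. The median log2 difference of the 10 genes was 1.09, or 0.61 without library 8, against -0.01 over all tested rows with or without it. In 8 of the 10 genes both HFD libraries were above both chow libraries, an order found in 22.3% of tested rows. Among those 8, Dnajb1 differed by 2.11 ± 0.56 (adjusted p 0.0863), Hspb1 by 1.16 ± 0.32 (0.0965), Hsph1 by 1.15 ± 0.34 (0.116), Hsp90aa1 by 1.03 ± 0.27 (0.0841), Bag3 by 0.96 ± 0.25 (0.0836) and Hspa8 by 0.70 ± 0.19 (0.0957) on the log2 scale, by the same test. Hspe1 differed by 0.17 (95% interval -0.14 to 0.47) and Hspd1 by -0.07 (-0.27 to 0.12).

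Without library 8, the group was left with library 7, which was taken to vary like the other groups. Hspa1a and Hspa1b then still rose, by 1.74 and 1.52 on the log2 scale in edgeR, both smaller than with library 8. Their SE of 0.22 and 0.18 was set by the other groups, since library 7 alone shows no spread. Dnajb1, at 0.60 ± 0.12, also rose (adjusted p 0.0489), which makes 3 of 10 genes beside 1.36% of rows called higher. The other 7 genes did not pass, with differences of 0.47 for Hspb1, 0.69 for Hsph1, 0.61 for Hsp90aa1, 0.65 for Bag3, 0.60 for Hspa8, -0.07 for Hspe1 and -0.16 for Hspd1. The calls of Hspa1a and Hspa1b ended when any 1 of libraries 1, 2, 3, 4, 5 or 6 was left out, with log2 differences between 3.13 and 3.36 and adjusted p between 0.0531 and 0.139 in edgeR, and in a fit of the 2 groups alone (adjusted p 0.107 and 0.114). Without library 3, 3 other genes passed in their place, Hspa8, Hsph1 and Bag3, beside 0.866% of rows higher. Other settings gave more calls: 5 genes without library 7 (0.754% of rows higher), 5 by DESeq2 (2.47%) and 8 with no filter on low counts (1.95%).

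HFD was then compared with chow in wild-type livers, the comparison on which the study's question rests. No heat shock gene passed the test, beside 2.37% of rows called higher, 2.22% lower and 4.59% either way. The edgeR test left 4 of the 10 at an unadjusted p under 0.05, against 19.1% of all tested rows, and DESeq2 called 1, Hspa8, with an adjusted p of 0.0399, beside 2.45% of rows higher. These 4 were Hspa8, which averaged 1333 ± 62 CPM on HFD and 899 ± 136 CPM on chow (SD, n = 2 each), Hsph1, Hsp90aa1 and Bag3. Their log2 differences were 0.57 ± 0.19, 0.83 ± 0.34, 0.64 ± 0.27 and 0.61 ± 0.26, with adjusted p between 0.143 and 0.237 in edgeR. In these 4 genes, too, both HFD libraries were above both chow libraries, which 30.6% of tested rows showed.

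Hspa1a, Hspa1b and Dnajb1 had overlapping wild-type HFD and chow libraries. Their log2 differences were 0.34 (95% interval -1.33 to 2.002), 0.03 (-1.47 to 1.52) and 0.03 (-1.25 to 1.31). Without library 8 the same differences had intervals of -0.14 to 0.81, -0.36 to 0.41 and -0.21 to 0.27, the SE of Hspa1a being 0.73 with that library in the fit and 0.21 without it. Hspa8 passed when library 3 or library 4 was left out (adjusted p 0.0371 and 0.0438 in edgeR), beside 3.6% and 3.28% of rows higher. In a fit of the wild-type libraries alone, Hspa8, Hsph1, Hsp90aa1 and Bag3 had adjusted p between 0.00435 and 0.0273 in edgeR, with log2 differences between 0.55 and 0.81, and all 4 rose, beside 4.84% of rows higher.

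**Figure D3:**
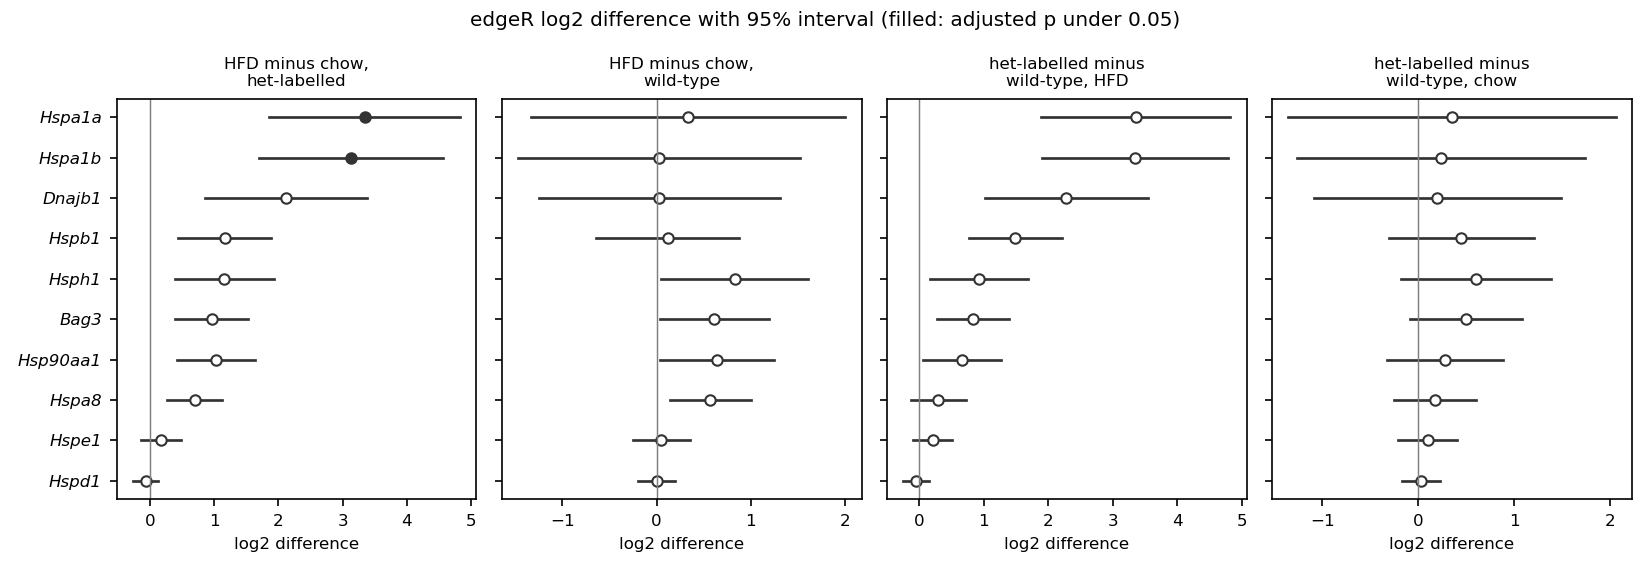
Log2 differences of the 10 heat shock genes with 95% intervals, from edgeR, in 4 comparisons (left to right: HFD minus chow in het-labelled and in wild-type livers, het-labelled minus wild-type on HFD and on chow). Filled points passed an adjusted p of 0.05, which Hspa1a and Hspa1b did in the leftmost panel.

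On HFD, het-labelled livers were set against wild-type livers, a comparison that shares the het-labelled HFD libraries with the diet comparison in het-labelled livers and the wild-type HFD libraries with that in wild-type livers. No heat shock gene passed the edgeR test with all libraries, beside 0.0953% of rows called higher, 0.349% lower and 0.445% either way. At an unadjusted p under 0.05 stood 7 of the 10 genes, against 13.8% of tested rows, and DESeq2 called 4 (Hspa1a, Hspa1b, Hspb1 and Bag3) beside 0.5% of rows higher. With no filter on low counts 4 passed (0.426% of rows), as did 4 without library 7 (0.611%). Hspa1a averaged 56.5 ± 53.7 CPM in het-labelled and 5.47 ± 1.32 CPM in wild-type HFD livers (SD, n = 2 each), a log2 difference of 3.36 ± 0.64 with an adjusted p of 0.0656 in edgeR. Hspa1b differed by 3.35 ± 0.63 (adjusted p 0.0637), Dnajb1 by 2.28 ± 0.56 (adjusted p 0.122) and Hspb1 by 1.49 ± 0.32 (adjusted p 0.0882).

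Both het-labelled HFD libraries were above both wild-type HFD libraries in 8 of the 10 genes, an order seen in 22.8% of tested rows. The median log2 difference was 0.88 over the 10 genes, or 0.50 without library 8, and 0.00 over all rows with or without it. Without library 8, Hspa1a rose by 1.76 ± 0.21 (adjusted p 0.0292) and Hspa1b by 1.73 ± 0.18 (adjusted p 0.02) in edgeR, 2 of the 5 rows (0.0397%) that then passed as higher. Dnajb1 differed by 0.77 ± 0.12 (adjusted p 0.108) and Hspb1 by 0.80 ± 0.17 (adjusted p 0.174) without that library, and Hsph1, Bag3 and Hsp90aa1 by 0.46, 0.53 and 0.25, against 0.93, 0.84 and 0.67 with it, none of them called.

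On chow, no heat shock gene passed the test between het-labelled and wild-type livers, by edgeR or by DESeq2, beside 0.326% of rows called higher, 0.191% lower and 0.516% either way. With all libraries in the edgeR fit, none of the 10 reached an unadjusted p of 0.05, which 15.3% of tested rows did. Both het-labelled libraries were above both wild-type libraries in 7 of the 10 genes, against 24% of tested rows. Hspb1 differed by 0.45 (95% interval -0.30 to 1.20), Bag3 by 0.49 (-0.09 to 1.08), Hspa1a by 0.35 (-1.35 to 2.06) and Hspa1b by 0.24 (-1.27 to 1.74) on the log2 scale. Without library 3 the differences of Hspa8, Hsph1 and Hsp90aa1 turned to -0.16, -0.02 and -0.10, none of them called. Library 3 also had the highest summed CPM of Kupffer cell markers, and the part of those cells in its values was not tested.

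Whether diet acted differently in the 2 genotypes was tested as the interaction, which is the difference between the het-labelled and the wild-type HFD minus chow differences. No heat shock gene passed, and 0% of the 12593 rows did. At an unadjusted p under 0.05 were 4 of the 10 genes in edgeR, against 7.15% of rows, and DESeq2 called 23 rows but no heat shock gene. The log2 difference of differences was 3.11 ± 0.90 for Hspa1b (unadjusted p 0.00763, adjusted p 0.595), 3.01 ± 0.99 for Hspa1a (adjusted p 0.628), 2.08 ± 0.79 for Dnajb1 (adjusted p 0.676) and 1.04 ± 0.46 for Hspb1 (adjusted p 0.69). For Hspa8 it was 0.13 (95% interval -0.48 to 0.73), for Hsph1 0.32 (-0.76 to 1.41), for Hsp90aa1 0.39 (-0.47 to 1.24) and for Bag3 0.35 (-0.46 to 1.15).

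The rise of Hspa1a and Hspa1b on HFD in het-labelled livers is thus not shown to differ from wild-type livers after adjustment over all rows. Without library 8 the differences were 1.49 for Hspa1b, 1.41 for Hspa1a, 0.57 for Dnajb1 and 0.35 for Hspb1, again with no heat shock gene and no other row called. They were 0.03 for Hspa8, -0.14 for Hsph1, -0.03 for Hsp90aa1 and 0.04 for Bag3. Without library 7, in place of library 8, the differences were 3.86 for Hspa1b, 3.76 for Hspa1a and 2.81 for Dnajb1, and all 3 passed (adjusted p between 0.000777 and 0.00229 in edgeR), among 14 rows in all, of which 9 (0.0715% of rows) were higher.

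**Figure D4:**
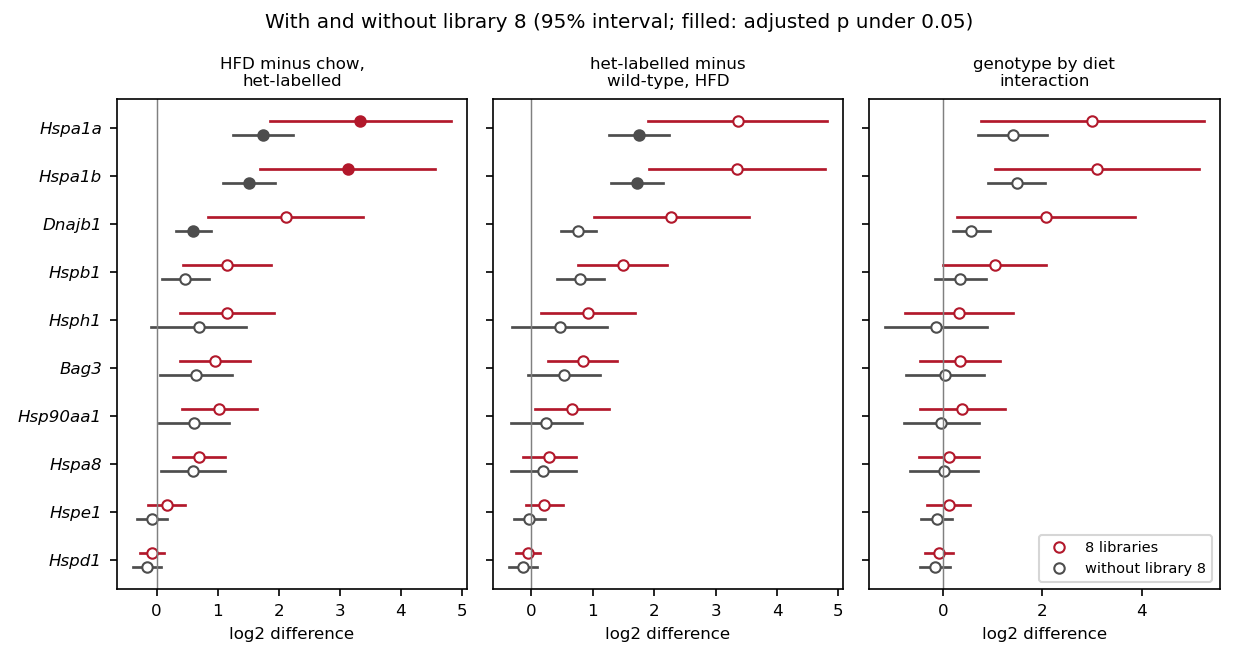
Log2 differences of the 10 heat shock genes with 95% intervals from edgeR, with all 8 libraries and without library 8, for HFD minus chow in het-labelled livers, het-labelled minus wild-type on HFD, and the interaction. Filled points passed an adjusted p of 0.05. Leaving out library 8 moves Hspa1a in the leftmost panel to 1.74, against 3.34 with it. It also leaves library 7 alone in its group, so the other groups set the shorter interval.

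Averaged over both genotypes, 5 of the 10 genes rose on HFD and none fell, beside 5.56% of rows called higher, 4.84% lower and 10.4% either way. The members that rose were Hspa8 (log2 difference 0.63 ± 0.13, adjusted p 0.0203), Hsp90aa1 (0.83 ± 0.19, 0.0268), Bag3 (0.79 ± 0.18, 0.0268), Hsph1 (0.99 ± 0.24, 0.0353) and Hspa1a (1.84 ± 0.49, 0.0475), by edgeR. For Hspa1a this average joined 3.34 in het-labelled with 0.34 in wild-type livers, where its HFD and chow libraries overlapped. Hspa1b differed by 1.58 ± 0.45 (adjusted p 0.0608). Summed into 1 row with Hspa1a, the pair rose by 1.66 ± 0.44 (adjusted p 0.0445). The summed row also rose on HFD in het-labelled livers (3.21, adjusted p 0.0332). It was not called by genotype on HFD (3.35, 0.0607), by genotype over both diets (1.81, 0.0607) or for the interaction (3.08, 0.584). Nor was it called for diet in wild-type livers (0.12, 0.943) or by genotype on chow (0.27, 0.883). The median over the 10 genes was 0.81, or 0.60 without library 8, against 0.01 over all rows.

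Without library 8 the averaged differences were 0.58 for Hspa8, 0.63 for Hsp90aa1, 0.63 for Bag3 and 0.76 for Hsph1. They were 1.04 for Hspa1a, 0.77 for Hspa1b and 0.32 for Dnajb1. For these last genes the averages joined 1.74, 1.52 and 0.60 in het-labelled livers with 0.34, 0.03 and 0.03 in wild-type livers. Library 7 then stood alone in its group. The genes called were then not the same, as Bag3 and Hsph1 dropped out and Hspa1b and Dnajb1 came in. The count of genes called was 5 with all libraries. The count was 0 without library 2, 5 or 6, 1 without library 1 (2.15% of rows higher), 4 without library 3 (5.8%), 2 without library 4 (4.59%) and 8 without library 7 (3.43%). It was 6 by DESeq2 (4.57%) and 6 with no filter on low counts (4.35%).

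Averaged over both diets, none of the 10 genes passed edgeR's test between het-labelled and wild-type livers with all libraries, beside 1.21% of rows called higher, 2.03% lower and 3.24% either way. At an unadjusted p under 0.05 were 7 of the 10, against 20.4% of rows, and DESeq2 called 4 (1.58% of rows higher). With no filter 6 passed (1.72%), as did 5 when library 7 was left out (1.27%) and 2, Hsph1 and Bag3, when library 4 was left out (2.3%). Hspb1 was nearest, with a log2 difference of 0.97 ± 0.23 (adjusted p 0.0572). Without library 8, 4 genes rose, beside 0.818% of rows: Hspa1a (1.06 ± 0.15, adjusted p 0.0207), Hspa1b (0.98 ± 0.13, 0.0135), Dnajb1 (0.49 ± 0.08, 0.0318) and Hspb1 (0.63 ± 0.11, 0.0387).

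Other signals moved with the heat shock genes in the same libraries. The 18 rows in which library 8 was more than 2 times the next highest library, looked up after their values were seen, include Egr1, Fos, Fosb, Jun, Junb and Ier2, which are immediate early genes, switched on within minutes of a stimulus, and Hspa1l, a neighbour and relative of Hspa1a. Egr1 had 14.6 and 418 CPM in het-labelled HFD libraries 7 and 8 and between 4.89 and 17.4 CPM in the other 6 libraries. Fos had 12.01 and 80.3 CPM in het-labelled HFD and between 0.85 and 3.88 CPM in the others. Summed over 21 immediate early genes, library 8 had 1068 CPM and library 7 had 337 CPM. The other 6 libraries had between 162 and 324 CPM. Egr1 alone gave 418 CPM of the sum in library 8. Not every listed gene was highest there. Dusp1 had 54.7 CPM in library 8 and 73.6 CPM in library 5, and Myc 11.4 CPM in library 8 and 32.6 CPM in library 4. Fosl2, Klf6, Klf10 and Nr4a1 were also higher in another library. The mean over the 18 tested genes of log2 CPM, centred for each gene, was 1.54 in library 8 and 0.22 in library 7. Whether the heat shock and the immediate early values of library 8 have a shared source was not tested. Library 3 had as many rows above that mark, 18, with no heat shock gene among them.

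Clock genes also differed by diet. Of 18 clock genes, 12 were higher and 2 lower on HFD averaged over both genotypes (12 and 1 without library 8), beside 5.56% of all rows higher and 4.84% lower. Their median log2 difference was 0.79, against 0.01 over all rows. Dbp, a clock output factor that cycles with large amplitude in the liver, had 16.4 and 11.02 CPM in het-labelled HFD, 0.35 and 0.41 CPM in het-labelled chow, 13.1 and 2.90 CPM in wild-type HFD and 0.50 and 0.93 CPM in wild-type chow livers. Of 2 cold-inducible RNA-binding proteins 1 fell. Cirbp, a cold-inducible RNA-binding protein whose RNA falls as temperature rises, fell on HFD by 0.55 on the log2 scale (adjusted p 0.0183 in edgeR, 9.53 CPM on HFD and 14.02 CPM on chow, and 0.0452 without library 8), and it had 9.60 and 8.88 CPM in the het-labelled HFD livers. Rbm3, the other, differed by -0.11 over both genotypes (adjusted p 0.535), by 0.06 in het-labelled and by -0.28 in wild-type livers. The labels give no time of collection, and the part of clock phase in the heat shock differences was not tested.

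**Figure D5:**
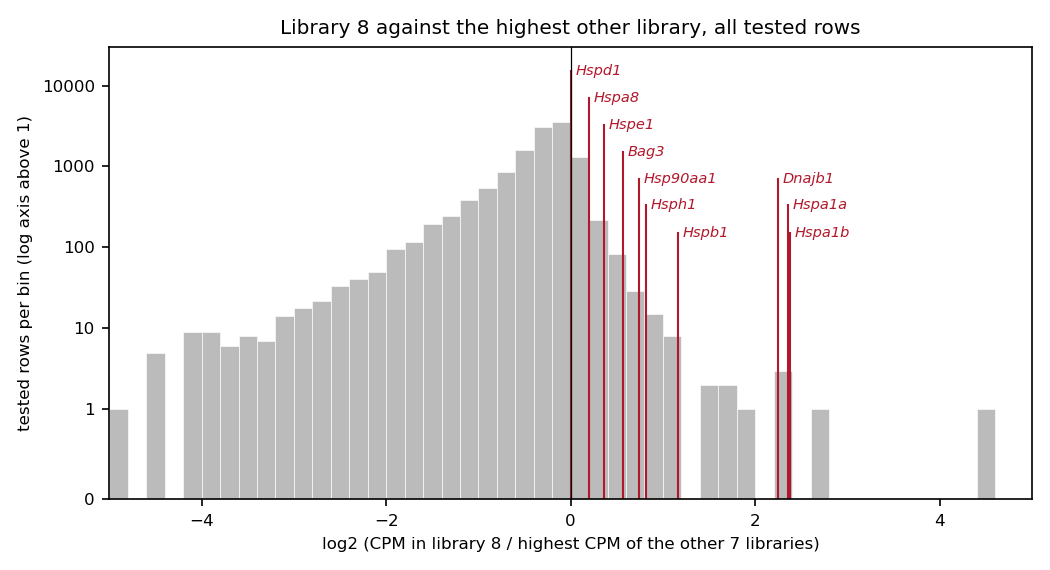
Number of tested rows (log axis above 1) by the log2 ratio of CPM in library 8 to the highest CPM among the other 7 libraries, with red lines at the 10 heat shock genes, whose heights carry no value. Hspa1a, Hspa1b and Dnajb1 lie beyond 2, where few of the 12593 rows do, and Hspd1 lies next to 0.

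The rest of the chaperone network was taken from lists by role. The 2 cold-inducible RNA-binding proteins described above are not chaperones but are included in the totals, so Cirbp is counted among the lower genes. Counts are of members called by edgeR for HFD against chow averaged over both genotypes, where 5.56% of all rows were higher and 4.84% lower. Over the lists reported here, 14 of 96 tested genes were higher and 2 lower, or 5 higher and 3 lower without library 8. Of 8 other HSP70 and HSP110 genes none passed by edgeR (median 0.16, against 0.01 over all rows), among them Hspa4, at 140 CPM on HFD and 123 CPM on chow with a log2 difference of 0.18 (adjusted p 0.161), Hspa13 at 0.28 (0.271) and Hspa4l at 0.34 (0.266).

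The HSP90 machinery held more calls. Of 18 tested members 4 rose and none fell, with a median of 0.10. Fkbp4, an immunophilin that works with HSP90 on steroid receptors, differed by 0.52 ± 0.08 (adjusted p 0.00592), Cacybp by 0.49 ± 0.09 (0.0121), Ahsa1, the activator of the HSP90 ATPase, by 0.39 ± 0.08 (0.0149) and Hsp90ab1, the constitutive cytosolic HSP90, by 0.41 ± 0.09 (0.0238). Hsp90ab1 had 913 and 1152 CPM in het-labelled HFD, 719 and 674 CPM in het-labelled chow, 856 and 758 CPM in wild-type HFD and 717 and 643 CPM in wild-type chow livers, so that all 4 HFD libraries were above all 4 chow libraries. All 4 genes also passed without library 8, when Fkbp5, another immunophilin of HSP90, fell (-0.62, adjusted p 0.0319, against -0.49 and 0.0648 with library 8). Fkbp4 and Ahsa1 rose within het-labelled livers too, at 0.58 ± 0.12 and 0.51 ± 0.11 (adjusted p 0.0374 and 0.0458), but not without library 8 (adjusted p 0.121 and 0.159).

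Of 12 cytosolic J-domain genes, 3 rose with a median of 0.07. These were the merged row Dnaja1+Mir207 (0.61 ± 0.13, adjusted p 0.0183), Dnajb2 (0.32 ± 0.08, 0.0357) and Dnajb4 (0.43 ± 0.12, 0.0486). Among them, the merged row passed without library 8 (adjusted p 0.0432), and the other 2 did not. Of 10 HSP70 cochaperones 1 rose, Stip1, which bridges HSP70 and HSP90 (0.53 ± 0.13, adjusted p 0.0337, and 0.072 without library 8). None of 4 tested small heat shock proteins passed (median 0.08), with log2 differences of 0.07 for Hspb8, -0.02 for Hspb6 and 0.10 for Hspb11, and of 15 TRiC and prefoldin subunits, which fold actin and tubulin, 2 did, Cct3 (0.20 ± 0.05, adjusted p 0.049) and Cct6a (0.25 ± 0.07, adjusted p 0.05 after rounding), and neither did without library 8.

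In the endoplasmic reticulum, 4 of 15 chaperones rose, with a median of 0.27. All 15 had positive differences, as did 51.5% of all tested rows. Hspa5, the HSP70 of that compartment, had 1014 and 932 CPM in het-labelled HFD, 872 and 505 CPM in het-labelled chow, 1012 and 939 CPM in wild-type HFD and 641 and 560 CPM in wild-type chow livers (0.60 ± 0.15, adjusted p 0.0388). Creld2, Manf and Serpinh1 were the others, at 0.84 ± 0.22, 0.71 ± 0.19 and 0.53 ± 0.14. None of the 4 passed without library 8, with adjusted p between 0.0565 and 0.0861. For Hspa5 all 4 HFD libraries were above all 4 chow libraries, library 7 being the highest of them and library 3 the highest on chow.

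Of 13 mitochondrial chaperones and proteases none rose and 1 fell, Clpx, an unfoldase of the matrix, with 170 and 198 CPM in het-labelled HFD, 268 and 317 CPM in het-labelled chow, 271 and 345 CPM in wild-type HFD and 332 and 329 CPM in wild-type chow livers. It fell on HFD over both genotypes (-0.39 ± 0.10, adjusted p 0.0367), within het-labelled livers (-0.67 ± 0.14, 0.0376) and in het-labelled against wild-type livers over both diets (-0.46 ± 0.10, 0.0406). In that last comparison 2 more genes of these lists passed, Dnaja4, a J-domain protein, which rose (0.80 ± 0.17, adjusted p 0.042), and Tsc1, a partner of HSP90 as well as an inhibitor of mTORC1, which fell (-0.31 ± 0.06, 0.034). Without library 8 the first of these calls of Clpx held (0.0366), and the other calls in this paragraph did not (adjusted p between 0.0508 and 0.0779). The 3 genes called by genotype over both diets are 3.12% of the 96 tested in the lists, a share near the 3.24% of all rows, and those called within het-labelled livers, Fkbp4, Ahsa1 and Clpx, are likewise 3.12%, near the 3.02% of all rows. Dnaja4 had 8.79 and 14.6 CPM in het-labelled HFD, 7.37 and 6.53 CPM in het-labelled chow, 4.44 and 4.59 CPM in wild-type HFD and 6.04 and 5.74 CPM in wild-type chow livers.

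The genes outside the 10 whose log2 CPM profile was most like the mean of the heat shock genes were sought among 8994 rows with a mean of at least 5 CPM over the 8 libraries, as a description. The nearest were Slc39a14, a zinc and iron importer (Pearson r 0.974), Tmem55a (0.969), Taf2 (0.968), Vegfa (0.965) and Ahsa2 (0.960), followed by Sh3gl1, Hsf4, Chrd, Hsp90ab1 and Rprd1b. Over the 7 libraries other than library 8, a choice made after seeing the data, r for these 10 lay between 0.731 and 0.917. Their rank correlations (Spearman) over all 8 libraries lay between 0.667 and 0.905. Slc39a14 had 162 and 198 CPM in het-labelled HFD libraries 7 and 8, against 129 to 147 CPM in the other 6. Vegfa, a growth factor for vessels, had 151 and 199 CPM in het-labelled HFD, against 119 to 133 CPM. For Hspa1b alone the nearest 5 were Tmem55a (0.976), Vegfa, Taf2, Slc39a14 and Fos (0.956), with r between 0.754 and 0.920 over the same 7 libraries. Rank correlations with Hspa1b over all 8 libraries were lower, at 0.833 for Tmem55a, 0.452 for Vegfa, 0.548 for Taf2, 0.595 for Slc39a14 and 0.667 for Fos.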

How the data were processed

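RNA of 8 liver libraries, 2 per group, was sequenced on an Illumina HiSeq, per the labels. The authors deposited whole-number read counts per gene row, with no normalization. The submitters' processing notes name CASAVA, TopHat2, HTSeq and DESeq and the mouse build mm9, while their versions, settings and the use of strand are not given in the sources used here.

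From these counts, filterByExpr kept 12593 of 22946 rows, and 5826 rows were at 0 in all libraries. After TMM scaling, edgeR 4.0.16 (R 4.3.3) fitted 4 group means over the 8 libraries (4 residual and 4.77 prior degrees of freedom, biological coefficient of variation 11.2%). Quasi-likelihood tests gave 7 comparisons, adjusted by Benjamini-Hochberg over all kept rows, and a row was called at an adjusted p under 0.05. Unless another tool is named, adjusted p-values are edgeR's. SE and 95% intervals were computed back from each test. CPM uses TMM-scaled totals, and log2 CPM a prior count of 2. Within each group the counts of the libraries differed by more than sampling noise, with chi-square values of 15.4 to 16.8 for each degree of freedom. The fit was tested on simulated data.

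The heat shock genes and the lists of pathway, clock, immediate early and marker genes were chosen with earlier results of these data known. From each pathway list the text names the called genes with the smallest adjusted p, up to 6, or else the 3 with the highest level. The hepatocyte marker Tf was not analysed here, and the list of regulators of the response is not reported here. Alternatives were RLE scaling, no filter, DESeq2 1.42.0, each library left out, only the groups compared, and the Hspa1a and Hspa1b rows summed.

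Exon lengths and shared 50-base stretches came from the GENCODE M21 annotation and promoter windows from RefSeq on GRCm38.p6, a build other than that of the counts. Motifs were searched as exact letters, any overlap allowed. Counting intervals and floors cover counting error only.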

Additional observations from a re-analysis of the deposited data

How the results depend on the processing

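Of the 10 genes' log2 differences in 7 comparisons, set against each alternative, 683 kept their direction and their side of the threshold, 69 passed only under the alternative, 39 lost their call and 33 changed sign. The cause of these shifts was not tested. RLE scaling changed no call count by over 1.5 times. In fits of the 2 groups alone, 1320 rows were called for diet in wild-type livers (4 heat shock genes), against 578 (0) with all libraries, 109 for diet in het-labelled livers (0 heat shock genes), against 380 (2), and 25 by genotype on HFD, against 56. With no filter on low counts, calls were 680 for diet in het-labelled livers (8 heat shock genes), 258 by genotype on HFD (4), 314 by genotype on chow, against 65, 8 for the interaction, against 0, and 760 by genotype over both diets (6), against 408 (0). DESeq2 called 229 rows by genotype on HFD (4 heat shock genes), 219 by genotype on chow and 23 for the interaction; it called 1 heat shock gene for diet in wild-type livers, 5 in het-labelled livers and 4 by genotype over both diets. With each library left out in turn, rows called were 97 to 898 for diet in wild-type livers, 142 to 292 in het-labelled livers, 12 to 180 by genotype on HFD, 1 to 280 by genotype on chow, 0 to 14 for the interaction, 540 to 1409 for diet over both genotypes, against 1309, and 23 to 757 by genotype over both diets. Heat shock genes called were then 0 to 1, 0 to 5, 0 to 4, 0, 0 to 3, 0 to 8 and 0 to 5 in the same order. The diet difference of Hspd1 in wild-type livers, 0.002 on the log2 scale, was -0.016 with RLE, -0.017 with no filter, -0.016 by DESeq2 and -0.019 in the 2 groups alone.

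Some small log2 differences changed sign when 1 library was left out, and their ranges over the 8 such fits follow. For diet in wild-type livers they were -0.22 to 0.223 for Hspa1b, -0.065 to 0.098 for Dnajb1, -0.027 to 0.114 for Hspe1 and -0.049 to 0.029 for Hspd1. For diet in het-labelled livers they were -0.072 to 0.377 for Hspe1 and -0.159 to 0.009 for Hspd1, and by genotype on HFD -0.026 to 0.423 and -0.132 to 0.036 for the same genes. By genotype on chow they were -0.164 to 0.433 for Hspa8, -0.015 to 1.026 for Hsph1, -0.097 to 0.561 for Hsp90aa1 and 0 to 0.056 for Hspd1. For the interaction they were -0.133 to 0.464 for Hspa8, -0.14 to 0.943 for Hsph1, -0.026 to 0.763 for Hsp90aa1, -0.122 to 0.326 for Hspe1 and -0.161 to 0.007 for Hspd1. For diet over both genotypes they were -0.011 to 0.213 for Hspe1 and -0.078 to 0.006 for Hspd1, and by genotype over both diets -0.051 to 0.033 for Hspd1. None of these reversed values passed the test. No paired analysis was possible because the libraries are numbered 1 to 8 across all groups and no number is shared between groups.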
